A study of Danio rerio with 4 samples.

Results

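The genes described here are 9 early heart genes of zebrafish: the transcription factor genes nkx2.5, tbx5a, tbx20, gata4 and hand2, the contractile protein genes myl7, myh6 and tnnt2a, and the natriuretic peptide gene nppa. They were named as a set, and their probes were found by matching the RefSeq identifier of each noncontrol probe to a gene symbol. Of 43603 noncontrol probes, 12 belonged to 8 of the 9 genes, and the probes as a whole named 11668 genes. No probe was matched to tbx5a, which was not analysed here. Of the 12 probes, 9 from 7 genes were bright enough to be tested among 28320 probes kept, and the 3 probes of nppa were not.

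RNA came from whole zebrafish embryos of 2 ages, 12 and 24 hours post-fertilization (hpf). The 4 arrays, 2 at each age, each held 1 pool of embryos given the morpholino MO-Bad, labelled with Cy5, and 1 wild-type (WT) pool, labelled with Cy3. A pool held 200 embryos, the morpholino went in at the 1-cell stage in 2 to 3 nl, and 1 µg of RNA was labelled. A morpholino is an antisense oligomer that blocks translation or splicing of its target, here a gene named Bad. Bad belongs to the family of BH3-only proteins that promote apoptosis. The labels name no embryos given a control morpholino, no strain and no dye swap, so morpholino, injection and dye cannot be told apart within an age. The labels call the pools biological replicates, and p-values cover only how far these arrays spread. In whole-embryo RNA, fewer cells of a type and less RNA per cell cannot be told apart.

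The vertebrate heart forms from paired fields of lateral plate mesoderm in which a network of transcription factors of the Nkx2, Gata, T-box and Hand families marks the precursors. In zebrafish these fields move to the midline during segmentation, fuse into a cone and then a tube, and start to beat at about the end of the first day. Genes of the sarcomere, the contractile unit of muscle, are switched on in the precursors while they move, and atrial and ventricular cells come to use different myosin heavy chains.

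All 4 arrays were on 1 slide and 1 scan. Median spot intensity was 52 to 76 in Cy3 over a local background of 29 to 32, and 88.5 to 136 in Cy5 over 48.5 to 49. In Cy3 55.9% to 61.5% of the probes rose well above background, and in Cy5 57.9% to 64.9% did. No noncontrol spot was saturated (0). Before normalization the median log2 ratio of Cy5 over Cy3, over probes well above background, was 1.02 and 0.61 at 12 hpf and 1.05 and 1.23 at 24 hpf. Unnormalized ratios are therefore read against these medians, and all tests used ratios normalized by loess within each array. The probe of badb had normalized log2 ratios of -0.30 and -0.20 at 12 hpf and -0.42 and -0.20 at 24 hpf (limma adjusted p = 0.0357 and 0.0160), but a morpholino need not lower the level of its target RNA, so badb does not check the labels. The ages of the WT pools went with their markers: 6 of 6 measured genes known to rise by 24 hpf rose, where 34.3% of all genes did, and 6 of 6 of earlier mesoderm and endoderm fell, where 40.7% did. Of these markers mylpfa and cryaa were kept only through the 24 hpf arrays and sox17 only through the 12 hpf arrays.

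Between 12 and 24 hpf in WT embryos, the contractile genes went from the background of the array to levels well above it. The RNA of myl7 and tnnt2a rose at least 39.0-fold on each of their 3 probes, and that of myh6 and nkx2.5 at least 3.11-fold. These bounds cover the dim 12 hpf signal only, not the spread between arrays or settings. The 6 probes of these genes were kept only through the 24 hpf arrays, so they had to be higher there. Of the 3 probes kept at both ages, that of gata4 fell 1.94-fold, and those of hand2 and tbx20 did not pass the test. In morphants over WT, hand2 was 1.19-fold higher at 12 hpf. At 24 hpf myh6 was 1.17-fold higher and tbx20 at least 1.35-fold lower, a bound for the dim morphant signal only. The only other ratio that passed the test was of 1 nkx2.5 probe at 12 hpf, where neither channel was well above background. These calls of hand2, myh6 and tbx20 were lost in 8 of 15, 6 of 12 and 4 of 14 alternative settings, in that order. At each age 2 of the 9 tested probes were called in morphants. That is near the share of all probes called, 21.6% at 12 hpf and 21.1% at 24 hpf. At 12 hpf the 9 include the probes of myl7, myh6 and tnnt2a and the called nkx2.5 probe, where neither channel was well above background. Of the remaining probes hand2 alone was called at 12 hpf.

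Only 2 of the 12 early heart probes, those of gata4 and hand2, were well above background in WT on both 12 hpf arrays. That is 16.7%, where 54.5% of all noncontrol probes were. At 24 hpf 9 of the 12 probes (75%) were, against 58.7% of all noncontrol probes. The plot of levels by array shows this change for each probe.

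**Figure D1:**
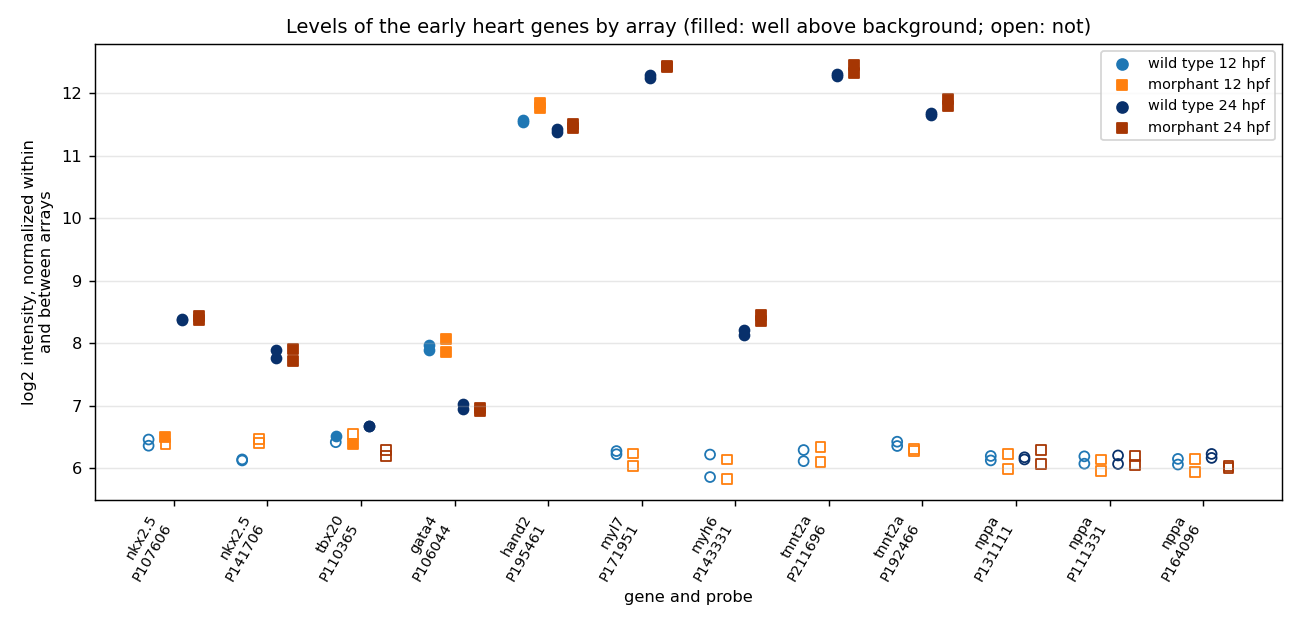
Levels of each early heart probe on the 4 arrays, as log2 intensity normalized within and between arrays (vertical axis), for wild type (circles) and morphant (squares) at 12 and 24 hpf. Filled points were well above background and open points were not; levels of different probes are not comparable. The probes of myl7 and tnnt2a lie between 6.03 and 6.42 at 12 hpf and between 11.65 and 12.46 at 24 hpf, and the probes of nppa have open points only.

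Among the transcription factor genes, nkx2.5 encodes a homeodomain protein that is among the first markers of cardiac precursors. It had 2 probes. For probe A_15_P107606 the background-subtracted WT Cy3 intensity was 7.94 and 6.40 at 12 hpf, not well above background, and 245 and 223 at 24 hpf. For probe A_15_P141706 it was 0.87 and 1.28 at 12 hpf, also not well above background, and 139 and 143 at 24 hpf. On both probes both 24 hpf arrays were far above both 12 hpf arrays, a separation that 36.2% of all probes showed on the normalized scale. The RNA was at least 3.93-fold higher at 24 hpf by the first probe and at least 3.11-fold by the second. Both probes were kept only through the 24 hpf arrays and so had to be higher there. The limma adjusted p of this rise is therefore not read.

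The morphant ratio of nkx2.5 was close to 0 at 24 hpf on both probes. The log2 Cy5 over Cy3 after background subtraction was 1.02 and 1.25 for the first and 0.95 and 1.17 for the second, near the medians of those arrays. After normalization the values were -0.02 and 0.06 for the first and -0.04 and 0.01 for the second, and both probes' arrays lay on the 2 sides of 0. The 95% intervals of the means were -0.12 to 0.16 and -0.16 to 0.13, with limma adjusted p-values of 0.862 and 0.889. At 12 hpf the second probe had normalized log2 ratios of 0.27 and 0.34, which passed the test (adjusted p = 0.00912), although neither channel was well above background on either array. No fold is given for it, and the first probe, with normalized log2 ratios of 0.03 and 0.03, did not pass (adjusted p = 0.765). The call of the second probe was lost with median centring (0.18, limma adjusted p = 0.653), a setting in which the median of all probes was also 0.18. It was lost without the second 12 hpf array as well (0.27).

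The gene gata4 encodes a zinc finger factor that acts in heart and endoderm. Its single probe, A_15_P106044, had a background-subtracted WT intensity of 98.3 and 107.5 at 12 hpf and of 61.3 and 51.8 at 24 hpf. On the normalized log2 scale the levels were 7.98 and 7.89 against 7.02 and 6.94, with both later arrays below both earlier ones, as for 49% of all probes. The difference of -0.95 (SE 0.08), a 1.94-fold fall, passed the test (limma adjusted p = 9.1e-05). The normalized morphant log2 ratios were 0.09 and -0.02 at 12 hpf and -0.11 and 0.03 at 24 hpf, on the 2 sides of 0 at each age. Neither age passed (adjusted p = 0.788 and 0.710), and the 95% interval at 24 hpf was -0.19 to 0.11.

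The gene hand2 encodes a basic helix-loop-helix factor that zebrafish need to form enough cardiac precursors, and it is also used in fin buds and pharyngeal arches. Its single probe, A_15_P195461, had a background-subtracted WT intensity of 1942 and 2146 at 12 hpf and of 2114 and 1836 at 24 hpf, and the 2 ages overlapped. The normalized WT log2 level was 11.58 and 11.54 at 12 hpf and 11.44 and 11.39 at 24 hpf, without overlap. It differed between ages by -0.15 (SE 0.08, limma adjusted p = 0.137), and this difference passed when the Cy3 signals were scaled to their 75th percentile instead (-0.47, adjusted p = 0.00170), a setting that moved the median of all probes to -0.30.

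In morphants hand2 was higher at 12 hpf. The Cy5 intensity after background subtraction was 4830 and 3972, and the unnormalized log2 ratio was 1.31 and 0.89, above the medians of both arrays. The normalized log2 ratio was 0.28 and 0.23, above 0 on both arrays, as for 38.5% of all probes. Its mean of 0.25 (SE 0.06, 95% interval 0.11 to 0.40), 1.19-fold, passed the test (limma adjusted p = 0.0210). At 24 hpf the normalized log2 ratios were 0.02 and 0.13, with a mean of 0.07 that did not pass (adjusted p = 0.467). The difference between ages, -0.18 (95% interval -0.39 to 0.02), did not pass either (adjusted p = 0.246), so the ratio is not shown to differ with age. The 12 hpf call was lost in 8 of 15 alternatives, including leaving out either 12 hpf array (adjusted p = 0.162 without the first and 0.0795 without the second), while the value stayed between 0.23 and 0.68.

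The gene tbx20 encodes a T-box factor of the heart, also made in cranial motor neurons. Its single probe, A_15_P110365, was dim. The background-subtracted WT intensity was 7.42 and 11.4 at 12 hpf, the second of them well above background, and 30.9 and 28.3 at 24 hpf, both well above background. The normalized WT level was 6.41 and 6.51 at 12 hpf and 6.67 and 6.67 at 24 hpf, a difference of 0.21 that did not pass (limma adjusted p = 0.0550). Of 13 alternatives 4 called this rise and 1 changed its sign, with values from -0.065 to 0.87.

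At 24 hpf the morphant signal of tbx20 was below the WT signal. The Cy5 intensity after background subtraction was 14.1 and 20.7, not well above background, and the unnormalized log2 ratio was -1.13 and -0.45, below the medians of both arrays and opposite in sign to them. The normalized log2 ratio was -0.39 and -0.48, below 0 on both arrays, as for 36.1% of all probes. Its mean of -0.43 (SE 0.06, 95% interval -0.58 to -0.29) passed the test (limma adjusted p = 0.00196). By this mean the RNA was at least 1.35-fold lower in the morphants. The bound covers the dim morphant signal only, and the interval reaches smaller folds. At 12 hpf the normalized log2 ratios were -0.03 and 0.03 (adjusted p = 0.997), and on each array only 1 channel was well above background. The 24 hpf ratio was below the 12 hpf ratio by 0.44, a difference that rests on signals near background. Among the 9 early heart probes only this difference between ages passed (adjusted p = 0.0211). The 24 hpf call was lost under plain background subtraction (-1.36, adjusted p = 0.0771), median centring (-0.53, 0.180), the scanner's processed signals (-1.81, 0.0553) and the deposited log ratios (-1.81, 0.0514), and the call of the difference was lost in 8 of 14 alternatives. All 14 kept a negative value at 24 hpf, from -1.92 to -0.39.

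**Figure D2:**
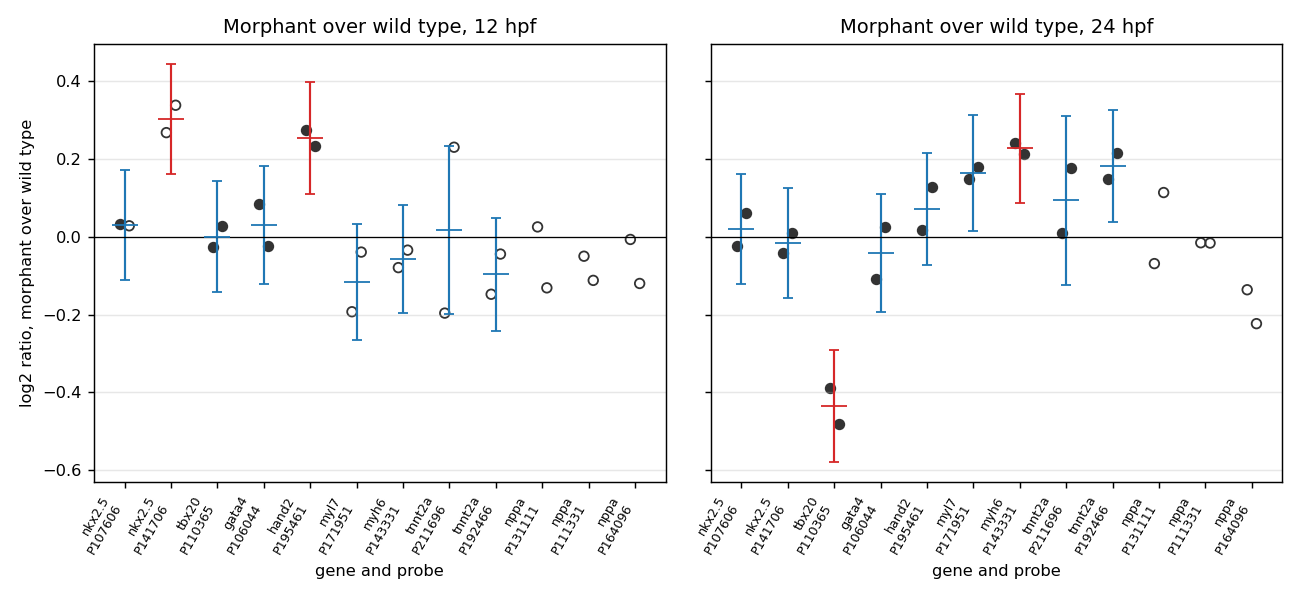
Normalized log2 ratio of morphant over wild type for each early heart probe on the 2 arrays at 12 hpf (left) and 24 hpf (right). Points are arrays, open where neither channel was well above background; bars are the limma mean with its 95% interval, red where the adjusted p was under 0.05 and blue where it was not, and the probes of nppa have no bar because they were not tested. At 24 hpf tbx20 lies lowest, at -0.39 and -0.48, and myh6 has the highest mean, with its arrays at 0.24 and 0.21.

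Among the contractile genes, myl7 encodes the regulatory myosin light chain of cardiac muscle and is the usual marker of zebrafish cardiomyocytes. Its probe, A_15_P171951, had a background-subtracted WT intensity of 4.26 and 6.23 at 12 hpf, not well above background, and of 3735 and 3134 at 24 hpf. The RNA was at least 65.1-fold higher in WT at 24 hpf. In the morphant channel it was at least 75.4-fold higher at 24 than at 12 hpf. The probe was kept only through the 24 hpf arrays and so had to be higher there. The limma adjusted p of the WT rise is therefore not read.

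The cardiac troponin T gene tnnt2a, whose loss gives the zebrafish mutant silent heart, had 2 probes. For A_15_P211696 the background-subtracted WT intensity was 3.44 and 0.36 at 12 hpf and 3707 and 3267 at 24 hpf. For A_15_P192466 it was 7.81 and 5.56 at 12 hpf and 2453 and 2191 at 24 hpf. Neither was well above background at 12 hpf, and on both probes the 24 hpf arrays were far above the 12 hpf arrays. The RNA was at least 65.4-fold higher by the first probe and at least 39.0-fold by the second, and in the morphant channel at least 70.7-fold and 47.3-fold. As both probes were kept only through the 24 hpf arrays, they had to be higher there. The limma adjusted p of the WT rise is not read for either.

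The gene myh6 encodes the myosin heavy chain of the zebrafish atrium. Its probe, A_15_P143331, had a background-subtracted WT intensity of 2.62 and 1.94 at 12 hpf, not well above background, and of 213 and 177 at 24 hpf. The RNA was at least 3.83-fold higher in WT at 24 hpf and at least 5.30-fold higher in the morphant channel. This probe too was kept only through the 24 hpf arrays and had to be higher there. The limma adjusted p of its WT rise is therefore not read.

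In morphants at 24 hpf myh6 was higher on both arrays, where 37.7% of all probes were. The Cy5 intensity after background subtraction was 536 and 503, and the unnormalized log2 ratio was 1.33 and 1.51, above the medians of both arrays. The normalized log2 ratio was 0.24 and 0.21. Its mean of 0.23 (SE 0.06, 95% interval 0.09 to 0.37), 1.17-fold, passed the test (limma adjusted p = 0.0298). The call was lost in 6 of 12 alternatives, among them leaving out the first (adjusted p = 0.207) or the second (0.153) 24 hpf array and median centring (0.42, adjusted p = 0.293), and the value stayed between 0.21 and 0.42.

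The other contractile probes had ratios above 0 on both 24 hpf arrays and did not pass the test. For myl7 the unnormalized log2 ratio was 1.36 and 1.53 and the normalized one 0.15 and 0.18, with a mean of 0.16 (95% interval 0.01 to 0.31, limma adjusted p = 0.111). For tnnt2a the normalized log2 ratio was 0.01 and 0.18 by the first probe (mean 0.09, 95% interval -0.12 to 0.31, adjusted p = 0.531) and 0.15 and 0.22 by the second (mean 0.18, 95% interval 0.04 to 0.33, adjusted p = 0.0741). The 2 probes of tnnt2a therefore differed in size, and neither was called. At 12 hpf neither channel of these 4 contractile probes was well above background, so their fitted ratios there, and the differences between ages that use them, rest on signals near background and are not read as levels of RNA.

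The gene nppa encodes atrial natriuretic peptide, a marker of working chamber muscle that zebrafish switch on in the heart tube. Its 3 probes, A_15_P131111, A_15_P111331 and A_15_P164096, were not well above background in either channel on any of the 4 arrays. Background-subtracted intensities lay between -2.78 and 3.60 in Cy3 and between -7.34 and 12.2 in Cy5, and the ages and groups overlapped. These values set no level for nppa and do not show that it was absent.

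Over the 9 probes tested in limma with Benjamini-Hochberg adjustment over all probes, 2 were called higher and 0 lower in morphants at 12 hpf, where 21.6% of all probes were called, 12.2% higher and 9.35% lower. At 24 hpf 1 was higher and 1 lower, against 10.2% and 10.9% of all probes (21.1% in all). The median log2 ratio over the 9 was 0.02 at 12 hpf and 0.07 at 24 hpf, beside 0.01 and 0.00 over all probes. The difference between ages was called for 1 of 9, lower at 24 hpf, where 8.46% of all probes were called, 5.35% lower and 3.11% higher. In WT 6 of the 9 probes, those of nkx2.5, myl7, myh6 and tnnt2a, passed the filter on dim probes only through the 24 hpf arrays, so that they had to be higher there, and their 6 calls are not read as a count. Of the other 3, which passed at both ages, 0 were called higher at 24 hpf and 1 lower, where 69% of all probes were called, 29.1% higher and 39.9% lower. With 9 probes, 1 or 2 calls are near the background share for the morphant ratios. The 12 hpf ratios of myl7, myh6, tnnt2a and the called nkx2.5 probe rest on signals near background. The count and median at 12 hpf, and the count of differences between ages, include these probes. Of the remaining probes hand2 alone was called at 12 hpf.

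**Figure D3:**
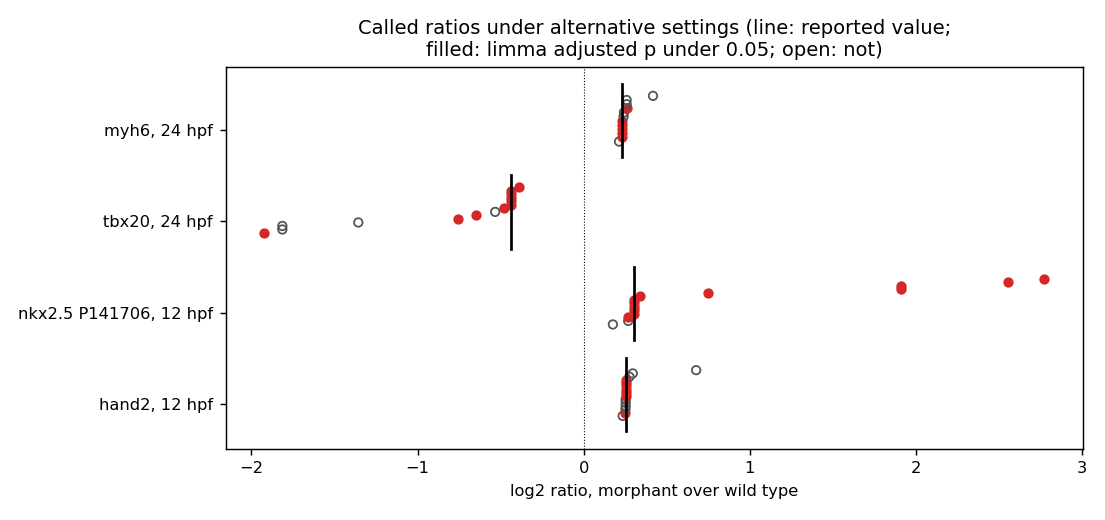
Log2 ratio of morphant over wild type for the 4 called early heart ratios under the alternative settings (points) beside the reported value (black line). Filled points had a limma adjusted p under 0.05 and open points did not. The values of hand2 stay between 0.23 and 0.68, of myh6 between 0.21 and 0.42 and of tbx20 between -1.92 and -0.39, while the second nkx2.5 probe, which was not above background, spreads from 0.18 to 2.77.

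For each measured gene, the 2 genes of most like pattern were taken from up to 13718 probes with a gene name, by the smallest root mean square difference of the centred log2 levels over the 8 channels. The patterns of myl7 and tnnt2a were the nearest to each other, at 0.09. Next came cacng1a, a calcium channel subunit gene, for myl7 at 0.12, and krt1-19e, a keratin gene, for tnnt2a at 0.11. Neither myl7 nor tnnt2a was well above background at 12 hpf. The nearest to nkx2.5 was hpca (0.05), to tbx20 arid3c (0.05), to gata4 fbxo22 (0.03), to hand2 map3k7 (0.04) and to myh6 bhlhe22 (0.10). The 8 channels are of 4 arrays and share their age and slide, so this is a description only.

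Other genes of the heart were taken from 2 lists, each gene by its brightest probe. Of 39 genes of the cardiac sarcomere, calcium handling and excitation, 25 were measured. Of these, 12, among them cmlc1, passed the filter on dim probes only through the 24 hpf arrays and so had to be higher there. The other 13 passed at both ages, and all 13 rose in WT between the ages, where 34.3% of all genes rose. The alkali light chain gene cmlc1 went from a normalized log2 level of 6.16 and 6.23, not well above background, to 13.33 and 13.31. The intermediate filament gene desma went from 9.18 and 9.07 to 14.95 and 15.20, the Z-disc gene ldb3a from 6.60 and 6.64 to 11.61 and 11.79, and the troponin I gene tnni1b from 6.61 and 6.61 to 11.54 and 11.63. On the probes of desma, ldb3a and tnni1b both 24 hpf arrays were above both 12 hpf arrays, as for 36.2% of all probes. The limma adjusted p of these genes was 1.9e-07 or less, and that of cmlc1 is not read because of the filter.

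In morphants at 24 hpf 9 of the 25 were called higher and 1 lower, where 12.1% and 14.1% of all genes were, and their median log2 ratio was 0.18 against 0.00 over all genes. The Popeye domain genes popdc2 and popdc1, which encode cAMP-binding membrane proteins of muscle, had log2 ratios of 0.38 and 0.45, and of 0.32 and 0.43 (limma adjusted p = 0.00227 and 0.00523). The ratio of desma was 0.47 and 0.30 and that of the myosin heavy chain gene myh7l 0.40 and 0.36 (adjusted p = 0.00481 and 0.00343). All 4 lost the call under plain background subtraction, median centring, the processed signals and the deposited log ratios, with the same sign. Also, desma lost it without the first 24 hpf array (0.30) and popdc1 without the second (0.32). The calls were lost in 7 of 14 alternatives for popdc1, 5 of 14 for popdc2 and for myh7l, and 5 of 15 for desma. At 12 hpf 12 of the 25 were well above background in neither channel, so their ratios there are not read. Of the other 13, 2 were called higher and 0 lower, where 12.4% and 10.9% of all genes were, dim ones included. These were pdlim7, a PDZ and LIM domain gene, at 0.76 and 0.54, and the calcium pump gene atp2a2a at 0.37 and 0.18 (limma adjusted p = 0.000423 and 0.0348). The call of atp2a2a was lost in 8 of 15 alternatives, with adjusted p-values up to 0.340, the value without the first 12 hpf array.

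Several of these genes are also used in skeletal muscle, whose markers moved in both directions in morphants. Of 24 such markers 18 were measured; in WT 17 rose, 5 of them kept only through the 24 hpf arrays, and 1 fell with age (34.3% and 40.7% of all genes). In morphants at 24 hpf 8 were higher and 4 lower (myf5, smyhc1, myod1 and myog), where 12.1% and 14.1% of all genes were. The median log2 ratio of the 18 was 0.20, with values down to -0.96 for myf5. Their summed linear level at 24 hpf was 282794 and 289063 in WT and 332162 and 329358 in morphants, both morphant sums above both WT sums, and all 18 were well above background on at least 1 WT array of that age. The summed level of the 25 cardiac genes was 176254 and 189015 in WT and 212166 and 215581 in morphants. The part of skeletal muscle in these ratios, and in those of myh6, myl7 and tnnt2a, was not tested.

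Age markers moved too. At 24 hpf 3 of the 6 genes that rise with age were higher in morphants and 0 lower, where 12.1% and 14.1% of all genes were. Of the 6 genes of earlier mesoderm and endoderm, 4 were lower and 0 higher, with a median log2 ratio of -0.58. The summed level of the first group was 111741 and 106496 in WT and 150676 and 145185 in morphants, and that of the second was 7550 and 9235 against 4338 and 4840. The age markers mylpfa, ckma and myf5 are also among the skeletal muscle markers. Their part in the ratios of the heart genes was not tested.

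Of 34 other cardiac regulators, 26 were measured. In WT 11 rose and 11 fell between the ages, against 34.3% and 40.7% of all genes. Of these, 2 that rose were kept only through the 24 hpf arrays and 1 that fell only through the 12 hpf arrays. The MADS box gene mef2ca rose from 8.24 and 8.48 to 12.46 and 12.22, and the nuclear receptor genes nr2f2 and nr2f1a rose by 3.62 and 3.23, while foxh1, which relays Nodal signals, fell by 3.23 on the log2 scale (limma adjusted p of 1.1e-06 or less for the 4). In morphants at 12 hpf 6 were called higher and 1 lower, against 12.4% and 10.9% of all genes. The ratio of mef2ca was 0.74 and 0.54, that of the sphingosine 1-phosphate transporter gene spns2 was 0.78 and 0.27, and those of the repressor gene hey2 and the apelin receptor gene aplnrb were 0.43 and 0.55, and 0.52 and 0.44. Each of the 4 was above 0 on both arrays (adjusted p = 0.000368, 0.00824, 0.00113 and 0.000957), and the call of spns2 was lost without the first 12 hpf array (0.27, adjusted p = 0.124). Median centring ended the call of all 4, with values of 0.74 to 0.98, or 0.56 to 0.80 relative to the median of all probes under that setting. Plain background subtraction ended those of spns2, hey2 and aplnrb (adjusted p = 0.102, 0.0536 and 0.0522), and the call of spns2 was lost in 6 of 15 alternatives in all.

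At 24 hpf 0 of the 26 regulators were called higher in morphants and 5 lower, where 12.1% and 14.1% of all genes were, and the median log2 ratio was -0.12. The ratio of gata5, which with gata4 belongs to the Gata family of heart and endoderm, was -0.72 and -0.51 (limma adjusted p = 0.000646). The hyaluronan synthase gene has2 was at -0.26 and -0.68, the growth factor gene fgf8a at -0.36 and -0.47 and the homeodomain gene nkx2.7 at -0.49 and -0.25 (adjusted p = 0.00955, 0.00280 and 0.00976). Each was below 0 on both arrays. Leaving out the second 24 hpf array ended the call of has2 (-0.26, adjusted p = 0.157), and leaving out the first ended that of nkx2.7 (-0.25, adjusted p = 0.160). All 4 calls were lost under plain background subtraction, median centring, the processed signals and the deposited log ratios, with values below 0 throughout. Endoderm, blood and vessel markers share tal1 with the regulators and hbae3 and sox17 with the age markers. Of 11 measured at 24 hpf, 1 was called higher and 3 lower, where 12.1% and 14.1% of all genes were. Their median log2 ratio was -0.12, and 8 of the 11 were below 0 on both arrays, where 36.1% of all probes were. Among the 8 was sox17, which was well above background in neither channel at 24 hpf. Their summed level was 70121 and 63473 in WT and 88373 and 84060 in morphants, most of it from the globin gene hbae3. Without hbae3 the sums were 17028 and 17438 in WT and 13835 and 14534 in morphants, 1 of the 11 was not well above background in WT, and their part in the ratios was not tested.

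Between the ages the morphant ratio fell for 9 of the 26 regulators and rose for 0, where 6.84% and 4% of all genes did. For the 25 contractile, calcium and excitation genes it rose for 3 and fell for 1. In 12 of these 25 neither channel was well above background at 12 hpf, so their differences rest on signals near background. Among the 3 rises this holds for popdc2, and popdc1 was well above background on only 1 of the 2 arrays at 12 hpf in each channel.

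**Figure D4:**
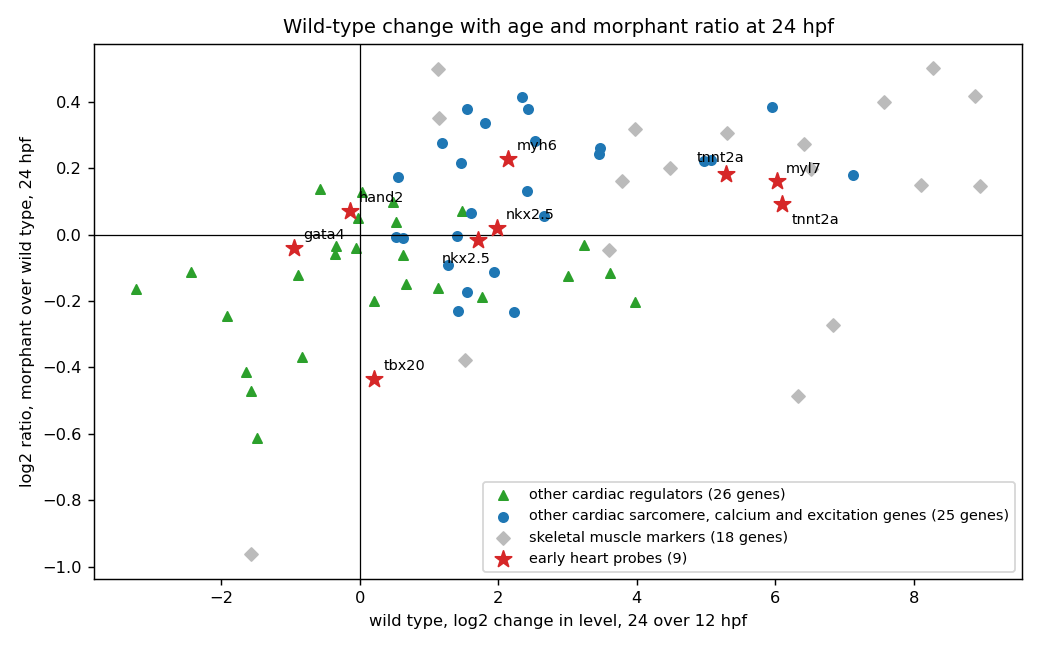
Change of the wild-type level from 12 to 24 hpf (horizontal axis, log2) and normalized log2 ratio of morphant over wild type at 24 hpf (vertical axis), each the mean of 2 arrays. Stars are the 9 tested early heart probes and other symbols are 1 probe per gene of the other cardiac regulators (26), other cardiac contractile, calcium and excitation genes (25) and skeletal muscle markers (18). The contractile early heart probes lie at the right above 0, with gata4 at the left and tbx20 at -0.43.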

How the data were processed

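Per the file headers, Agilent Feature Extraction 10.5.1.1 read the scans; the deposited spot and local background signals are unnormalized fluorescence intensity values. The deposited tables also hold processed intensity signals and a p-value for each spot from that software, and the authors' deposited value table holds its log10 ratio of Cy5 over Cy3, equal to the scanner's own at every spot. Median spot and background signals were used. After normexp (offset 50) and loess within arrays, control spots (1417 of 45220) were left out, spots of a probe were averaged, and probes that stood well above background in 1 channel or both, on both arrays of an age, were kept (28320). Symbols matched 16770 of 19210 RefSeq probes. Ratios and, after Aquantile normalization, Cy3 levels were tested in limma 3.58.1 under R 4.3.3, two-sided, with Benjamini-Hochberg adjustment at 0.05, on all 4 arrays. The procedure was tested on simulated data. A fold is a bound ("at least") where 1 side was well above background on neither of its arrays. The dim side was then set at the higher of its own signal and the lowest signal well above background. That step is open to dye bias. Where its own signal was the higher on both arrays, the bound equals the fitted fold. No bound covers the spread between arrays or settings. The early heart genes and the other lists were chosen with earlier results of these data known. Of the other heart lists, up to 4 called genes with the largest change are named per comparison. Same-numbered pools did not deviate together (r = -0.04 for ratios, -0.14 for WT levels), so replicate numbers were not taken as pairs.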

Additional observations from a re-analysis of the deposited data

Results flagged for a closer look

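The ratio of morphant to wild type differed between 12 and 24 hpf, by limma's test of the difference, for tbx20 among the early heart probes (-0.44, 24 minus 12 hpf, adjusted p = 0.0211), a call lost in 8 of 14 alternatives. Its Cy5 signal was well above background on 1 of the 4 arrays. Among the other cardiac regulators the named differences were -0.84 for mef2ca, -0.58 for fgf8a, -0.56 for has2 and -0.50 for tal1, a factor of blood and endothelial precursors. Among the other contractile, calcium and excitation genes they were -0.88 for pdlim7, 0.46 for popdc2, 0.38 for popdc1 and 0.37 for actn2b, an alpha-actinin gene, and popdc2 was not well above background in either channel at 12 hpf. These calls were lost in 5 of 15 alternatives for mef2ca and for pdlim7, 6 of 15 for fgf8a, 8 of 15 for has2, 9 of 15 for tal1, 11 of 15 for actn2b and 7 of 14 for popdc2. For popdc1 9 of 14 lost the call and 3 more changed the sign. Without the second 24 hpf array the difference of has2 was -0.35 (limma adjusted p = 0.150).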

How the results depend on the processing

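With 2 arrays an age on 1 slide, and without a dye swap, small ratios are the least certain values here, and signal over background limits tbx20, nppa and every contractile probe at 12 hpf. The WT calls of the early heart probes (6 rises, 1 fall) kept direction and call under every alternative run for them. The 6 rises were of probes kept only through the 24 hpf arrays. The filter favoured a rise in them, so their stability does not support it. Their lowest log2 rises were 5.29 for myl7, 5.38 and 4.68 for tnnt2a, 1.72 for myh6, and 1.69 and 1.38 for nkx2.5. Each is below the log2 of that probe's bound. Of 494 values of the early heart probes under alternatives, 430 kept direction and side of the threshold. Another 28 lost a call, 8 gained one and 28 changed sign.

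The number of probes called in limma was 6103 at 12 hpf, 5973 at 24 hpf, 2396 for the difference between ages and 19531 for the WT level. With an offset of 10 it was 2969 at 24 hpf and 259 for the difference. Plain subtraction called 1032 at 12 hpf, 0 at 24 hpf and 0 for the difference, with 7312 and 5421 at an unadjusted p under 0.05. Median centring in place of loess called 348 (335 higher and 13 lower, against 3454 and 2649), 4 and 0 (865 unadjusted), and moved the median of all probes by 0.18 at 12 hpf and 0.15 at 24 hpf. Relative to those shifts hand2 was at 0.50 at 12 hpf, and tbx20 at -0.68 and myh6 at 0.27 at 24 hpf. The processed signals called 2192, 15 and 0 (5960 unadjusted), the deposited log ratios 2275, 100 and 0 (6050 unadjusted), and the scanner's background-subtracted signals, an alternative added after the data were seen, 2792, 1399 and 0 (5618 unadjusted). The 75th-percentile scaling gave 5915 higher and 14821 lower WT levels, against 8244 and 11287. Leaving out 1 array at a time gave 2351 to 6294 at 12 hpf, 2456 to 6741 at 24 hpf, 1192 to 2187 for the difference and 16578 to 19072 for the WT level. With the replicate number as a block (replicate block) the counts were 5919, 5761, 2439 and 18721, and no early heart call changed; the crossed pairing, also added later, called 20116 WT levels. The causes were not tested.

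Values that changed sign were mostly small and not called, and those of myh6, tnnt2a and nkx2.5 that use the 12 hpf arrays rest on signals near background. With no background subtraction the 12 hpf ratio was -0.021 for tbx20, 0.022 for myh6 and -0.014 for tnnt2a (A_15_P211696). With median centring it was -0.043 for nkx2.5 (A_15_P107606), -0.079 for tbx20 and -0.14 for tnnt2a (A_15_P211696), the 24 hpf ratio of nkx2.5 (A_15_P141706) was 0.14, and the difference of A_15_P107606 was 0.26. The ratios under that setting include its shift of the median of all probes, 0.18 at 12 hpf and 0.15 at 24 hpf. With the processed signals and the deposited log ratios alike, gata4 was at -0.095 at 12 hpf, nkx2.5 (A_15_P141706) at 0.011 at 24 hpf, and the differences of tnnt2a (A_15_P211696) and of the called popdc1 were -0.14 and -0.21. With the scanner's background-subtracted signals tbx20 and gata4 were at -0.072 and -0.050 at 12 hpf, and those differences were -0.081 and -0.14; plain subtraction put that of tnnt2a at -0.060. The WT change of tbx20 was -0.065 with 75th-percentile scaling. Leaving out single arrays moved the 12 hpf ratio of tbx20 between -0.027 and 0.028, of gata4 between -0.025 and 0.085 and of tnnt2a (A_15_P211696) between -0.20 and 0.23. At 24 hpf it moved nkx2.5 between -0.025 and 0.062 (A_15_P107606) and between -0.041 and 0.010 (A_15_P141706), and gata4 between -0.11 and 0.026. It moved the difference of A_15_P107606 between -0.056 and 0.031 and of tnnt2a (A_15_P211696) between -0.14 and 0.29.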
